A study of Homo sapiens with 38 samples.

Results

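The 10 genes described here, ATF4, ATF3, DDIT3, TRIB3, CHAC1, DDIT4, SESN2, ASNS, PSAT1 and PHGDH, belong to the response that cells mount to a shortage of amino acids and to related stresses. They were taken by symbol from a table of 57133 gene symbols. All 10 were among the 16674 genes that passed the filter on low counts, and the lowest count of any of them in any library was 36. The data are QuantSeq libraries, a form of RNA sequencing whose reads lie near the polyadenylated 3′ end of each transcript. The 38 libraries came from Shef6, a human embryonic stem cell line, and fall into 19 groups of 2. Naive cells, which model the pluripotent cells of the embryo before implantation, were grown without feeders in PXGL, a medium with LIF and inhibitors of MEK, tankyrase and PKC. The study followed capacitation, the passage of naive cells towards competence for lineage formation, in several media. In experiment Ex1 (30 libraries), naive cells adapted to serum coating were sampled on serum and on Geltrex, a basement membrane extract. Cells moved to N2B27 or to the commercial medium E8 were sampled at days 2, 3, 4, 6 and 8, and cells moved to the commercial medium mTeSR at days 4, 6 and 8, all on Geltrex. Experiment Ex2 (8 libraries) held naive cells on Geltrex and, at day 4, cells in N2B27 alone, with XAV939 added, a tankyrase inhibitor (XAV), or with XAV939 together with FGF2 and Activin A (FAX). Cells were seeded as a suspension with a ROCK inhibitor for the first day. All libraries come from 1 cell line, and all conditions but the naive state and N2B27 at day 4 were sampled in 1 experiment.

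ATF4 is a transcription factor of the basic leucine zipper family whose protein level is set mainly by translation. When amino acids run short, when unfolded protein builds up in the endoplasmic reticulum, or under viral or haem stress, one of several kinases phosphorylates the initiation factor eIF2α. General translation then falls while ATF4 is translated, and it switches on genes for amino acid synthesis and uptake. Some ATF4 targets feed back on the pathway or, when the stress lasts, favour cell death. ATF4 protein was not measured. Several of these genes also answer other signals, and how far their RNAs read the response to ATF4 in these cells was not tested.

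ATF4 acts with C/EBP partners at a composite site known as the CARE, whose core was searched as TGATGNAA on both strands. RefSeq promoter windows of 300 bases (250 before to 50 after a start, build GRCh38.p14) were at hand for all 10 genes, 16 windows in all. The motif lay in 1 window each of ASNS, ATF3 and CHAC1, and in 3.62% of 35116 windows of all genes (4.46% of 27305 gene symbols). The stretches of 30 bases around these 3 matches are printed since the genes behaved differently below. Capitals mark the match, and each stretch is written 5′ to 3′ along the strand of its gene.
ASNS: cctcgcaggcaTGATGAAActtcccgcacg
ATF3: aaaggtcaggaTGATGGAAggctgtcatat
CHAC1: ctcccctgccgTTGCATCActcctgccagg
The ASNS stretch lies at chr7:97872458-97872487 on the minus strand. Its match starts 68 bases before the RefSeq start, in an exon of 2 of 17 GENCODE transcripts and in no coding exon. The ATF3 stretch lies at chr1:212565205-212565234 on the plus strand, with the match 191 bases before the start and in no annotated exon. The CHAC1 stretch lies at chr15:40953251-40953280 on the plus strand. Its match is on the opposite strand, 209 bases before the start, in an exon of 1 of 3 transcripts and in no coding exon. A match is a description of the letters only.

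Library totals ranged from 3038046 to 5612354 counts with a median of 4427277, and mitochondrial genes took 1.86% to 3.63%. Levels are given as CPM, the count per 1000000 counts of the scaled library total. A gene was called when its adjusted p-value in edgeR's quasi-likelihood test, corrected over all 16674 genes, was under 0.05 and its log2 fold change was above 1 in size. Only called genes are said to have risen or fallen, and the SE of a log2 fold change follows the ± sign. The legends of the study call the replicates technical in some places and biological in another. Between groups of 2, the p-values therefore measure the spread between libraries within an experiment. Those against naive cells also take in differences between coatings and experiments. There the 6 naive libraries were pooled, as were the 4 of N2B27 at day 4. The summed markers fitted the labels. The sum of KLF17, DPPA5 and SUSD2, which mark naive cells, was 530 to 676 CPM in the 6 naive libraries and 222 to 290 CPM in the day 8 libraries. Singly, DPPA5 was called lower than in naive cells in 12 of 15 comparisons, KLF17 in 6 and SUSD2 in 5, while SUSD2 was called higher in 2. The sum of ZIC2 and SALL2, which mark primed cells, was 16.8 to 23.8 CPM in naive libraries and 212 to 280 CPM at day 8. POU5F1, SOX2 and NANOG together gave 1372 to 1822 CPM in naive cells and 1286 to 1863 CPM at day 8. Markers of other cell types (GATA3, CDX2, SOX17, GATA6, TBXT, COL1A1, COL1A2 and DCN) summed to 6.92 to 10.8 CPM in naive libraries. At day 8 they reached 370 to 374 CPM in N2B27, 135 to 141 CPM in E8 and 226 to 230 CPM in mTeSR. Of the 7 that could be tested, 7 were higher than in naive cells at day 8 in N2B27, 6 in E8 and 5 in mTeSR, CDX2 was lower in E8, and DCN was at 0 in N2B27 and mTeSR at day 8. THY1, first listed with the fibroblast genes, also marks primed cells and was left out of these sums after its values were seen. Its level was at most 0.224 CPM in naive libraries and 57.8 to 111 CPM at day 8. The part of these markers in the changes of the 10 genes was not tested. In bulk RNA, fewer cells of a type and less RNA per cell cannot be told apart.

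The 6 naive libraries set the baseline of the comparisons, and several of the 10 genes differed among them. On Geltrex, 9 of the 10 had a higher mean than on serum coating in Ex1, with log2 differences from −0.01 to 0.62. None was called by edgeR (background 0.0480% of all genes), while 5 had an unadjusted p-value under 0.05, and DESeq2 also called 0. Between Ex2 and Ex1 on Geltrex, 10 of 10 were higher in Ex2, with differences from 0.09 to 0.90. Again 0 were called by edgeR or DESeq2 (background 4.67%), but 8 had an unadjusted p-value under 0.05 and 4 an adjusted one. DDIT3 gave 52.5 and 51.6 CPM in Ex1 and 94.2 and 96.8 CPM in Ex2, a log2 difference of 0.88 ± 0.16 (adjusted p = 0.000244). ASNS differed by 0.90 ± 0.28 (adjusted p = 0.0278), DDIT4 by 0.74 ± 0.18 (adjusted p = 0.00551) and ATF4 by 0.40 ± 0.12 (adjusted p = 0.0220). The median over all genes was 0 in the comparison of experiments. The calls against the pooled naive libraries therefore move with the choice of naive libraries for all 7 genes that had any, as given beside each. N2B27 at day 4, the other condition sampled in both experiments, gave 0 calls between them with edgeR and DESeq2 (background 1.01%) and 4 unadjusted p-values under 0.05. ATF3 was higher in Ex2 by 0.82 ± 0.14 (adjusted p = 0.000777) and CHAC1 by 0.59 ± 0.16 (adjusted p = 0.0345).

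**Figure D1:**
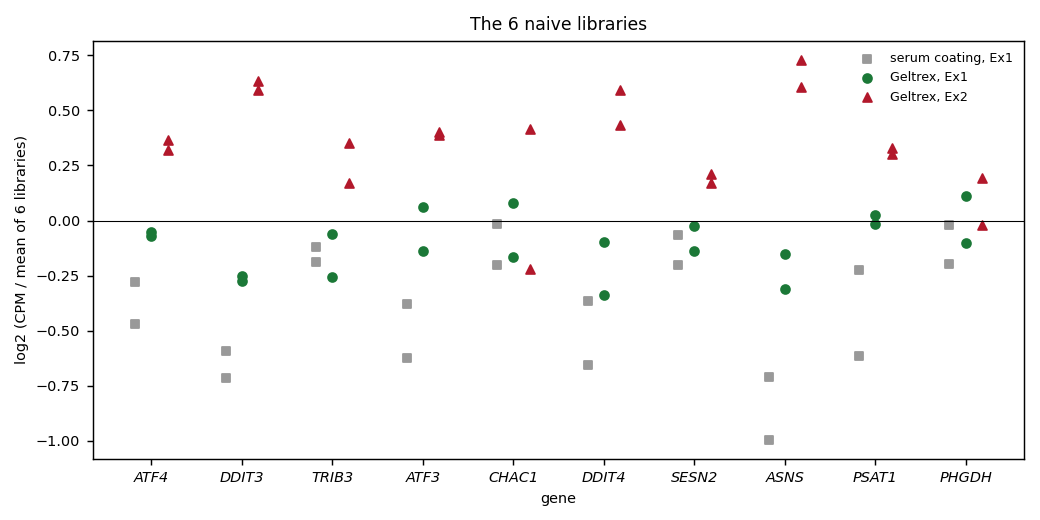
Level of each of the 10 genes in the 6 naive libraries, as log2 of the CPM over the mean of the 6, with 1 point a library, grey for serum coating, green for Geltrex in Ex1 and red for Geltrex in Ex2. For ATF4, DDIT3, TRIB3, DDIT4, SESN2 and ASNS the Ex2 libraries lie above 0 and the 4 Ex1 libraries below it.

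Against the naive libraries, the genes had calls in both directions, and TRIB3 alone gave 10 of the falls. At day 3, differences were above 0 for 1 of 10 genes in N2B27 and 4 in E8. At days 6 and 8 they were above 0 for 8 of 10 in N2B27, E8 and mTeSR. Over 15 comparisons, 150 tests gave 27 calls, 10 higher and 17 lower, where all genes gave 20.8% of tests called, 13.7% higher and 7.18% lower. The 10 genes had 18.0% of their tests called. The balance of directions depended on the naive libraries used as the baseline. With naive cells of the same experiment there were 36 calls, 22 higher and 14 lower (24% of tests, beside 21.9% of all genes), and with the experiment as a covariate 31, 17 higher and 14 lower (20.7%, beside 20.9%). Against serum-coated naive cells alone there were 41, 32 higher and 9 lower (27.3%, beside 20.6%). Of the falls against the pooled naive libraries, 15 of 17 lay at days 2 to 4, which make up 9 of the 15 comparisons and hold 57.8% of the lower calls over all genes. Of the rises, 9 of 10 lay at days 6 and 8, which hold 48.8% of the higher calls over all genes. Against serum-coated naive cells alone, 23 of 32 rises lay at days 6 and 8 and 7 of 9 falls at days 2 to 4. In N2B27 the calls numbered 0 of 10 on day 2 (background 16.2%), 3 on day 3 (15.6%), 2 on day 4 (18.4%), 0 on day 6 (23.1%) and 1 on day 8 (23.9%). At the days without calls edgeR gave 7 and 5 unadjusted p-values under 0.05, and DESeq2 called 0 on both. E8 had 2 on day 2 (background 24.6%), 3 on day 3 (17.8%), 2 on day 4 (20.8%), 2 on day 6 (23.3%) and 4 on day 8 (27.5%). In mTeSR there were 2 each at day 4 (background 19.8%), day 6 (22.5%) and day 8 (25.1%). XAV and FAX gave 1 call each (backgrounds 17.0% and 17.1%). The median log2 difference of the 10 genes was −0.44 in N2B27 and −0.37 in E8 at day 3. By day 8 it was 0.30 in N2B27, 0.60 in E8 and 0.40 in mTeSR. The median of all genes lay between −0.03 and 0.02 in all 15 comparisons. These comparisons share the same naive libraries.

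**Figure D2:**
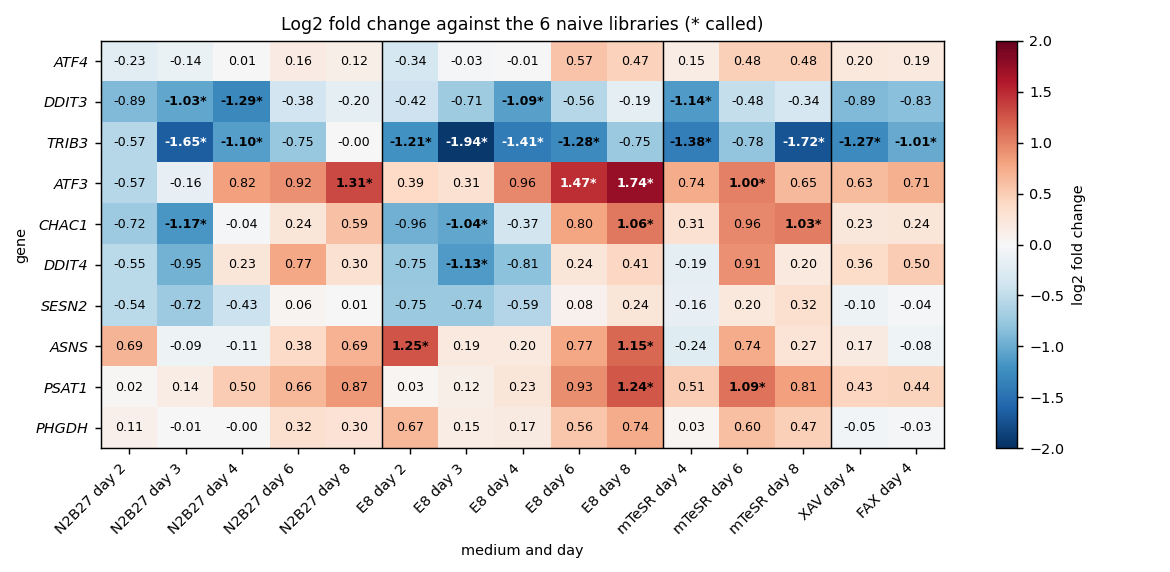
Log2 difference of each of the 10 genes (rows) from the 6 naive libraries in each medium and day (columns), with the value in each cell, colour from blue (lower) to red (higher), and called values in bold with a star. TRIB3 is below 0 in all 15 columns and called in 10, and the calls for ATF3, PSAT1 and CHAC1 in the higher direction lie at days 6 and 8.

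ATF4 itself (chr22:39519695-39522683, plus strand, GENCODE 44 on GRCh38, as for the positions below) showed small differences. Its lowest, median and highest naive levels were 503, 667 and 898 CPM. In E8 it gave 577 and 518 CPM at day 2, 1031 and 1027 CPM at day 6 and 821 and 1101 CPM at day 8. In mTeSR it gave 992 and 949 CPM at day 6. The libraries of E8 at day 6 and of mTeSR at days 6 and 8 lay above all naive libraries, while the other groups overlapped with them in whole or in part. ATF4 was called in 0 of 15 comparisons by edgeR and by DESeq2, with adjusted p-values under 0.05 in 4 of them. The differences were 0.57 ± 0.15 in E8 at day 6 (adjusted p = 0.00195), 0.47 ± 0.15 at day 8, and 0.48 ± 0.15 in mTeSR at days 6 and 8. Its day course passed the test in E8 (adjusted p = 5.79e-07) and in N2B27 (adjusted p = 0.0183), the latter lost without replicate 2 of N2B27 day 6 (adjusted p = 0.0857). As ATF4 is controlled at translation, its RNA level is no measure of its activity.

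TRIB3 (chr20:362835-397559, plus strand), a pseudokinase that ATF4 induces and that binds ATF4 and DDIT3 to damp the response, was the gene with the most calls. Naive libraries gave 33.7, 37.9 and 51.5 CPM (lowest, median, highest). N2B27 gave 33.2 and 20.4 CPM at day 2, 8.86 and 16.2 at day 3, 24.8 and 22.8 at day 6, and 35.5 and 44.3 at day 8. At day 4 the N2B27 libraries gave 17.7 and 20.1 CPM in Ex1 and 15.6 and 20.9 CPM in Ex2. E8 gave 16.6 and 18.0 CPM at day 2, 11.0 and 9.91 at day 3, 14.8 and 15.4 at day 4, 16.2 and 16.8 at day 6, and 23.2 and 24.5 at day 8. Outside the naive state, 30 of 32 libraries lay below the lowest naive library, and the 2 exceptions were N2B27 at day 8. mTeSR gave 16.5 and 14.3 CPM at day 4, 22.1 and 24.4 at day 6, and 11.7 and 12.6 at day 8. XAV gave 18.3 and 14.9 CPM and FAX 17.8 and 22.0 CPM.

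TRIB3 fell in 10 of 15 comparisons. The largest difference was in E8 at day 3, −1.94 ± 0.21 on the log2 scale, or 3.83-fold lower (adjusted p = 4.91e-09). mTeSR at day 8 followed with −1.72 ± 0.21, or 3.30-fold lower (adjusted p = 3.59e-08), and N2B27 at day 3 with −1.65 ± 0.21, or 3.15-fold lower (adjusted p = 7.34e-08). The other 7 calls were between 2.01-fold lower in FAX and 2.65-fold lower in E8 at day 4. Against naive cells on Geltrex of the same experiment, N2B27 at day 4 differed by −0.93 in Ex1 and by −1.40 in Ex2, the latter called, and the difference between experiments was not called (adjusted p = 0.324). The call in FAX was lost under RLE scaling, under a filter of over 10 counts in 2 libraries and with DESeq2, against serum-coated naive cells alone (−0.86), and without FAX replicate 1 (−0.86) or Ex2 naive replicate 1 (−0.97) or 2 (−0.90). That in N2B27 at day 4 was lost against serum-coated naive cells alone (−0.96) and without Ex2 naive replicate 2 (−0.998), and that in E8 at day 2 with a library score as a covariate (−0.84). That score places each library along the main axis on which replicates differed from each other. Every alternative kept the negative sign. In N2B27 at day 8 the level lay within the naive range, with a difference of −0.0042 ± 0.17.

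DDIT3 (chr12:57516588-57521737, minus strand) encodes CHOP, a C/EBP family factor that promotes cell death under lasting stress. Naive libraries gave 38.1, 52.1 and 96.8 CPM. At day 4 it gave 23.2 and 21.1 CPM in N2B27 of Ex1, the lowest group, 25.01 and 32.1 in N2B27 of Ex2, 27.8 and 30.2 in E8, and 26.6 and 29.5 in mTeSR. All 17 libraries below the lowest naive library were of days 2 to 4, and none of the 32 libraries lay above the highest. By day 8 the level was 48.5 and 58.9 CPM in N2B27, 45.9 and 62.6 in E8, and 46.4 and 51.2 in mTeSR, within the naive range. DDIT3 fell in N2B27 at day 3 (−1.03 ± 0.26, adjusted p = 0.00205) and day 4 (−1.29 ± 0.20, adjusted p = 2.70e-06), in E8 at day 4 (−1.09 ± 0.26, adjusted p = 0.000869) and in mTeSR at day 4 (−1.14 ± 0.26, adjusted p = 0.000698). With the naive libraries of the same experiment, 1 of these 4 calls remained, that of N2B27 at day 4, and the others became −0.60, −0.65 and −0.70. Against naive cells on Geltrex of the same experiment, N2B27 at day 4 gave −1.23 ± 0.17 in Ex1 and −1.74 ± 0.17 in Ex2, both called, while against serum-coated naive cells alone it gave −0.66. The day 3 call was also lost when the compared libraries were fitted alone, and without N2B27 day 3 replicate 2 (−0.77) or Ex2 naive replicate 1 (−0.89) or 2 (−0.84). The same Ex2 libraries decided the calls in E8 at day 4 (−0.94 and −0.89) and in mTeSR at day 4 (−0.99 and −0.94). In XAV and FAX it was called with the Ex2 naive libraries alone (−1.52 and −1.47).

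ATF3 (chr1:212565334-212620777, plus strand), another basic leucine zipper factor, is induced by ATF4 and also by many other signals, as an immediate early gene is. Naive libraries gave 18.6, 28.0 and 37.9 CPM. N2B27 gave 18.4 and 19.9 CPM at day 2, 20.4 and 30.03 at day 3, 36.4 and 36.7 at day 4 of Ex1, 61.5 and 67.3 at day 4 of Ex2, 52.9 and 54.4 at day 6, and 67.4 and 73.5 at day 8. E8 gave 40.7 and 33.8 CPM at day 2, 35.2 and 34.9 at day 3, 49.5 and 60.5 at day 4, 79.5 and 77.6 at day 6, and 103 and 86.2 at day 8. From day 6 on, all libraries of the 3 media lay above all naive libraries. mTeSR gave 44.9 and 49.97 CPM at day 4, 59.5 and 54.1 at day 6, and 45.3 and 43.9 at day 8, so that mTeSR and N2B27 did not overlap at day 8. ATF3 rose in E8 at day 6 (1.47 ± 0.20, adjusted p = 1.36e-07) and day 8 (1.74 ± 0.19, or 3.34-fold, adjusted p = 2.15e-09), in N2B27 at day 8 (1.31 ± 0.19, adjusted p = 1.02e-06) and in mTeSR at day 6 (1.00 ± 0.20, adjusted p = 0.000114). The last value lies at the threshold and was lost with the library score as a covariate, with no filter on low counts, and without replicate 1 (0.90) or 2 (0.94) of naive cells on serum, replicate 1 of naive cells on Geltrex in Ex1 (0.98), or replicate 1 of mTeSR day 6 (0.93). At day 4, adjusted p-values were under 0.05 in all media with differences of 0.63 to 0.96, none called. With naive cells of the same experiment ATF3 was also called in E8 at day 4 (1.20) and N2B27 at day 6 (1.17), and the E8 day 4 call was made with the library score as a covariate as well (1.02). Against serum-coated naive cells alone it was called at day 4 in N2B27, E8, mTeSR, XAV and FAX (1.11 to 1.44), and in N2B27 at day 6 and mTeSR at day 8.

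CHAC1 (chr15:40952962-40956512, plus strand) degrades glutathione and is a sensitive reporter of ATF4 with ATF3 and DDIT3. Naive libraries gave 75.5, 82.6 and 117 CPM. In N2B27 the levels were 49.4 and 57.2 CPM at day 2, 29.8 and 47.9 at day 3, 62.6 and 74.5 at day 4 of Ex1, 101 and 106 at day 4 of Ex2, 104 and 103 at day 6, and 127 and 137 at day 8. In E8 they were 41.4 and 48.9 CPM at day 2, 39.5 and 45.4 at day 3, 61.8 and 74.2 at day 4, 158 and 146 at day 6, and 169 and 196 at day 8. Thus 12 libraries, all of Ex1 and days 2 to 4, lay below all naive libraries, and 10 libraries of days 6 and 8 lay above them. mTeSR gave 101 and 117 CPM at day 4, 157 and 186 at day 6, and 184 and 174 at day 8. CHAC1 fell at day 3 in N2B27 (−1.17 ± 0.18, 2.24-fold lower, adjusted p = 5.84e-06) and in E8 (−1.04 ± 0.18, adjusted p = 2.39e-05), and rose at day 8 in E8 (1.06 ± 0.15, 2.08-fold, adjusted p = 6.01e-07) and in mTeSR (1.03 ± 0.16, 2.04-fold, adjusted p = 1.40e-06). It is the 1 gene of the 10 called in both directions. With the Ex1 naive libraries it was also called in mTeSR at day 6 (1.04). All these values lie near the threshold. The N2B27 day 3 call was lost without replicate 1 of that group (−0.87). The E8 day 3 call was lost with the Ex1 naive libraries (−0.97) or serum-coated naive cells alone (−0.94), with the library score as a covariate and without E8 day 3 replicate 1 (−0.95) or Ex2 naive replicate 2 (−0.93), the E8 day 8 call without E8 day 8 replicate 2 (0.95), and the mTeSR day 8 call (0.99 to 1.00) when serum replicate 1, Geltrex Ex1 replicate 2, mTeSR day 8 replicate 1 or Ex2 naive replicate 1 was left out.

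DDIT4 (chr10:72273919-72276036, plus strand), also known as REDD1, inhibits mTORC1 and is induced by low oxygen and glucocorticoids as well as by ATF4. Naive libraries gave 39.6, 53.8 and 94.1 CPM. Levels in N2B27 were 22.1 and 41.0 CPM at day 3, 69.5 and 72.4 at day 4 of Ex1, 98.8 and 112 at day 6, and 73.4 and 78.6 at day 8. Levels in E8 were 24.4 and 31.8 CPM at day 3, 32.4 and 37.7 at day 4, 71.0 and 74.2 at day 6, and 64.3 and 99.8 at day 8. At days 2 to 4 all 6 E8 libraries lay below all naive libraries. In mTeSR it gave 50.8 and 57.3 CPM at day 4, 115 and 117 at day 6, and 72.5 and 69.4 at day 8, so that day 6 was the highest day in N2B27 and mTeSR. DDIT4 fell in E8 at day 3 (−1.13 ± 0.24, 2.18-fold lower, adjusted p = 0.000323) and was called in no other of the 15 comparisons. That call was lost with the Ex1 naive libraries (−0.78) or serum-coated naive cells alone (−0.64), with the library score as a covariate, and without E8 day 3 replicate 1 (−0.96) or Ex2 naive replicate 2 (−0.95). At day 6 the differences were 0.77 ± 0.20 in N2B27 and 0.91 ± 0.20 in mTeSR, with adjusted p-values of 0.00201 and 0.000362, and both were called against naive cells of the same experiment.

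SESN2 (chr1:28259518-28282491, plus strand) binds leucine and restrains mTORC1 when leucine is short. Naive libraries gave 107, 119 and 142 CPM, E8 gave 77.8 and 67.6 CPM at day 2, and mTeSR gave 143 and 162 CPM at day 8. The 15 libraries below all naive ones were of days 2 to 4. edgeR and DESeq2 called SESN2 in 0 of 15 comparisons, with 7 adjusted p-values under 0.05. Of those 7, 6 were negative (N2B27 and E8 at days 2, 3 and 4, from −0.43 to −0.75) and 1 was positive (mTeSR at day 8, 0.32 ± 0.13, adjusted p = 0.0393).

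ASNS (chr7:97851677-97872542, minus strand) makes asparagine and is the classical target of ATF4 under amino acid shortage. Naive libraries gave 25.5, 43.2 and 84.1 CPM, with 25.5 and 31.0 CPM on serum coating, 40.8 and 45.6 CPM on Geltrex in Ex1, and 77.2 and 84.1 CPM in Ex2. E8 gave 105 and 132 CPM at day 2, 77.6 and 36.7 at day 3, 55.8 and 58.6 at day 4, 80.2 and 90.1 at day 6, and 104 and 118 at day 8. N2B27 gave 45.02 and 117 CPM at day 2, 45.9 and 43.4 at day 4 of Ex1, and 82.0 and 78.8 at day 8. In E8 at days 2 and 8 both libraries lay above all naive libraries, while the replicates of N2B27 at day 2 and of E8 at day 3 differed widely. ASNS rose in E8 at day 2 (1.25 ± 0.29, 2.38-fold, adjusted p = 0.000717) and at day 8 (1.15 ± 0.29, 2.23-fold, adjusted p = 0.00108). The library score was 2.55 and 2.56 in E8 day 2, 2.71 in replicate 2 of N2B27 day 2 and 2.29 in replicate 1 of E8 day 3, against −1.41 to 1.07 elsewhere. ASNS was itself among the 7137 genes behind the score. In N2B27 day 2 and E8 day 3, the library with the high score was the one with more ASNS. With the score as a covariate the call in E8 at day 2 was lost (0.66), and its part in the rise was not further tested. With naive cells of the same experiment ASNS was called in 6 comparisons, the added 4 being N2B27 at days 2 and 8, E8 at day 6 and mTeSR at day 6. Against serum-coated naive cells alone the differences in E8 were 2.07 at day 2 and 1.97 at day 8, and ASNS was called in 10 comparisons, which added E8 at days 3 and 4, N2B27 at day 6 and mTeSR at day 8.

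PSAT1 (chr9:78297125-78330093, plus strand) and PHGDH (chr1:119648411-119744218, plus strand) catalyse steps of serine synthesis from a glycolytic intermediate. PSAT1 gave 172, 265 and 331 CPM in naive libraries, 498 and 468 CPM in N2B27 at day 8, 661 and 583 CPM in E8 at day 8, and 532 and 588 CPM in mTeSR at day 6. The pooled naive libraries had the lowest mean of all 16 conditions, although those of Ex2 did not, and 23 of 32 libraries lay above every naive library. PSAT1 rose in E8 at day 8 (1.24 ± 0.15, 2.36-fold, adjusted p = 9.30e-09) and in mTeSR at day 6 (1.09 ± 0.15, 2.12-fold, adjusted p = 1.92e-07), the latter lost without serum naive replicate 1 (0.99). With naive cells of the same experiment it was called in N2B27 at day 8, E8 at day 6 and mTeSR at day 8 as well. It had 10 positive differences with adjusted p-values under 0.05, of 15. PHGDH gave 137, 155 and 180 CPM in naive libraries, 193 and 308 CPM in E8 at day 2, and 257 and 269 CPM in E8 at day 8. It was called in 0 comparisons by edgeR and DESeq2, with 7 adjusted p-values under 0.05, all positive. The largest differences were 0.74 ± 0.12 in E8 at day 8 (adjusted p = 2.50e-06) and 0.67 ± 0.12 in E8 at day 2.

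**Figure D3:**
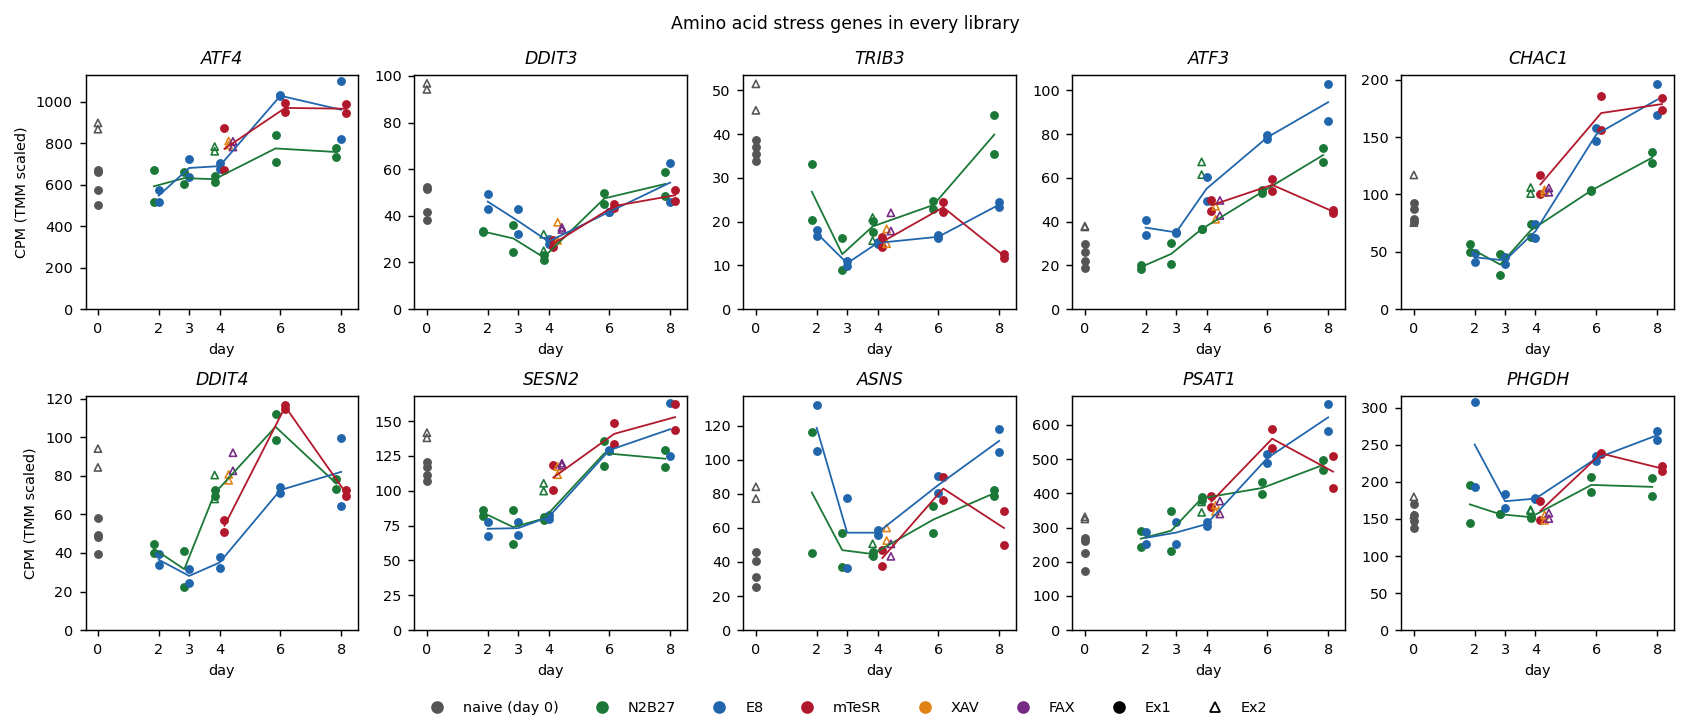
Level of each of the 10 genes in every library, in CPM, against the day, with 1 point a library coloured by medium, filled for Ex1 and open for Ex2, and lines through the Ex1 means. ATF3 and CHAC1 climb from day 3 to day 8 in N2B27 and E8, while TRIB3 is lowest at day 3 there and reaches 35.5 and 44.3 CPM in N2B27 at day 8.

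Within a medium, leaving out the naive libraries, the levels differed between days for most of the 10 genes. The F-test over all days passed at an adjusted p-value under 0.05 for 9 of 10 in N2B27 (51.5% of all genes), for 10 of 10 in E8 (53.3%) and for 8 of 10 in mTeSR over days 4 to 8 (19.4%). The exception in N2B27 was PHGDH (adjusted p = 0.0708), and those in mTeSR were ATF3 (adjusted p = 0.178) and ATF4 (adjusted p = 0.0759). CHAC1 had the smallest adjusted p-value in E8 (4.95e-13) and ATF3 in N2B27 (1.59e-11). The mTeSR course rests on 6 libraries. Without mTeSR day 4 replicate 1 the call was lost for ASNS (adjusted p = 0.226), CHAC1 (0.0873), DDIT3 (0.0731), PHGDH (0.204), PSAT1 (0.103) and SESN2 (0.297). ASNS was also lost without day 4 replicate 2 (0.0739) or day 6 replicate 1 (0.0562) or 2 (0.171), PSAT1 without day 6 replicate 2 (0.0740), SESN2 without day 8 replicate 2 (0.0889) and TRIB3 without day 6 replicate 2 (0.0759).

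At a given day, 140 tests between media of the same experiment gave 3 calls. E8 against N2B27 gave 0 calls on day 2 (background 4.55%), 0 on day 3 (1.68%), 1 on day 4 (2.49%), 0 on day 6 (5.28%) and 0 on day 8 (7.29%). mTeSR against N2B27 gave 0 at day 4 (1.58%), 0 at day 6 (2.62%) and 1 at day 8 (3.80%). mTeSR against E8 gave 0 at day 4 (0.0840%), 0 at day 6 (1.10%) and 1 at day 8 (5.31%). In the comparisons of E8 and N2B27 without a call, edgeR gave 5, 1, 5 and 6 unadjusted p-values under 0.05 in the order of days, and DESeq2 called 1, 0, 0 and 0. For mTeSR against N2B27 these were 5 and 3, with 0 DESeq2 calls, and against E8 3 and 3, also with 0. The comparisons with N2B27 share its libraries, as do those with E8 and with mTeSR.

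The 3 calls were each of another gene. DDIT4 was 2.02-fold lower in E8 than in N2B27 at day 4 (−1.02 ± 0.19, adjusted p = 0.000590), with 32.4 and 37.7 CPM against 69.5 and 72.4 CPM, as given above. This call was lost with the library score as a covariate and without N2B27 day 4 replicate 2 (−0.99) or E8 day 4 replicate 1 (−0.91). TRIB3 was 3.29-fold lower in mTeSR than in N2B27 at day 8 (−1.72 ± 0.22, adjusted p = 1.98e-06), with 11.7 and 12.6 CPM against 35.5 and 44.3 CPM. ATF3 was 2.12-fold lower in mTeSR than in E8 at day 8 (−1.09 ± 0.14, adjusted p = 2.02e-06), a call lost without E8 day 8 replicate 1 (−0.95). The groups of these 3 comparisons did not overlap, which with 2 libraries a group adds no support to calls made on the same values. ATF3 was also higher in E8 than in N2B27 at day 2, by 0.96 ± 0.17 (adjusted p = 0.000375), just under the fold threshold. DESeq2 called it, as did edgeR under RLE scaling or with the library score as a covariate, and the difference stayed positive at the other 4 days (0.43 to 0.59). E8 at day 8 had positive differences from N2B27 for 9 of the 10 genes with a median of 0.35, beside 0.01 for all genes, and TRIB3 was the exception at −0.75 ± 0.19 (adjusted p = 0.00576). mTeSR at day 8 differed from E8 by a median of −0.24, with ASNS at −0.89 ± 0.27 (adjusted p = 0.0252), TRIB3 at −0.97 ± 0.23 (adjusted p = 0.00406) and PSAT1 at −0.42 ± 0.14 (adjusted p = 0.0354), none of these called. The summed markers of other cell types, THY1 left out, did not overlap between the media at day 8, as given above, and their part was not tested.

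**Figure D4:**
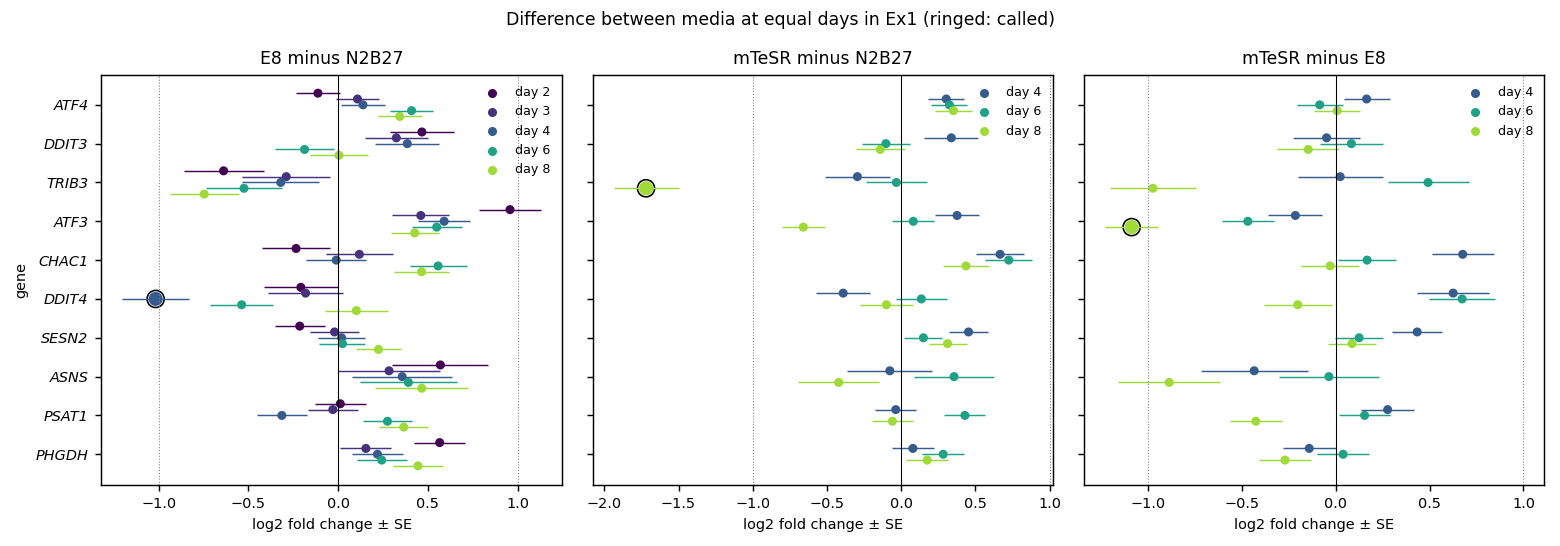
Log2 difference between media at the same day for each of the 10 genes, in Ex1, with points coloured by day, bars for the SE and called differences ringed. The calls are DDIT4 for E8 against N2B27 at day 4 (−1.02), and at day 8 TRIB3 for mTeSR against N2B27 (−1.72) and ATF3 for mTeSR against E8 (−1.09).

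In Ex2 the additions to N2B27 left the 10 genes without a call at day 4. XAV against N2B27 gave 0 calls (background 0.570%) and 1 unadjusted p-value under 0.05, FAX against N2B27 0 and 1 (0.336%), and FAX against XAV 0 and 0 (0.0120%). DESeq2 called 0 in each. ATF3 gave 61.5 and 67.3 CPM in N2B27, 41.1 and 47.0 CPM in XAV and 42.8 and 49.7 CPM in FAX, and the N2B27 libraries lay above the others. The difference was −0.55 ± 0.14 for XAV (adjusted p = 0.0435) and −0.48 ± 0.14 for FAX (adjusted p = 0.140). For the other 9 genes differences lay between −0.26 and 0.27 in these 3 comparisons, with SEs of 0.12 to 0.29, so that changes well below 2-fold could be missed.

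Whether the difference between media itself changed with the day was tested as an interaction. Between E8 and N2B27 over days 2 to 8 it passed for DDIT4 alone of the 10 (adjusted p = 0.0266), a share near the background of 11.0% of all genes. DDIT4 differed by −1.02 at day 4 and −0.54 at day 6, and by −0.21, −0.18 and 0.10 at days 2, 3 and 8. The interaction was lost without N2B27 day 4 replicate 1 (adjusted p = 0.0546) or 2 (0.0725), N2B27 day 8 replicate 1 (0.0680), E8 day 4 replicate 1 (0.1097) or E8 day 8 replicate 2 (0.0557). Between mTeSR and N2B27 over days 4 to 8 it passed for TRIB3 (adjusted p = 0.00160) and ATF3 (adjusted p = 0.00603), in a background of 2.18%. TRIB3 differed by −0.30 at day 4, −0.03 at day 6 and −1.72 at day 8, and ATF3 by 0.38, 0.08 and −0.66. The interaction of ATF3 was lost without N2B27 day 8 replicate 2 (adjusted p = 0.0535) or mTeSR day 8 replicate 2 (0.0580), and that of TRIB3 kept its call when each library was left out. The change from naive cells on Geltrex to N2B27 at day 4 differed between Ex2 and Ex1 for 0 of the 10 genes with edgeR (background 11.7%), with 3 unadjusted p-values under 0.05. The DESeq2 test was not run for the interactions.

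The other genes of the pathway also differed in direction. Over all genes, 13.7% of the tests against naive cells gave higher calls and 7.18% lower ones, and the lists are to be read beside these shares. The list of eIF2α kinases and phosphatase subunits (7 genes tested, 105 tests against naive cells) gave 12 higher calls (11.4%) and 0 lower. All 12 were of EIF2AK2, the kinase PKR that senses double-stranded RNA. EIF2AK4, the kinase GCN2 that senses uncharged tRNA, differed by 0.76 ± 0.15 in E8 at day 8 (adjusted p = 5.52e-05) and was never called. Among 6 partner and related factors, NUPR1 was lower in 15 of 15 comparisons and ATF5 higher in 1, while CEBPB, a partner of ATF4, differed by −0.79 ± 0.17 in E8 at day 3 without a call. Of 12 genes of serine, one-carbon and proline synthesis, ALDH1L2, a mitochondrial folate enzyme, was lower in 15 of 15 comparisons and CTH, which makes cysteine, higher in 9. MTHFD2, another mitochondrial folate enzyme, differed by −0.75 ± 0.08 in E8 at day 3 (adjusted p = 3.12e-09) and by −0.06 ± 0.08 at day 8. Over that list there were 11 higher (6.11%) and 18 lower calls in 180 tests.

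Amino acid transporters stood at the other end, with 72 higher (43.6%) and 0 lower calls in 165 tests over 11 genes. SLC7A1, SLC38A1 and SLC43A1 were higher in 15 of 15 comparisons and SLC7A3, a carrier of cationic amino acids, in 14. At day 8 SLC7A3 differed by 2.02 ± 0.13 in N2B27, 2.51 ± 0.13 in E8 and 2.05 ± 0.14 in mTeSR. SLC38A2, a carrier of small neutral amino acids, differed by 1.36 ± 0.13 in E8 at day 8 (adjusted p = 9.37e-11). SLC7A5, the large neutral amino acid carrier, was not called, nor were SLC7A11, SLC3A2, SLC1A5 and SLC6A9, so the rise was not general to the list. The median of the list at day 8 was 0.87 in N2B27, 1.36 in E8 and 0.78 in mTeSR. Cytosolic aminoacyl-tRNA synthetases, only some of which ATF4 induces, and the tRNA exporter XPOT gave 0 calls in 240 tests over 16 genes with edgeR. Of these tests, 117 had an unadjusted p-value under 0.05. GARS1, MARS1, QARS1 and SARS1 found no match in the data and were not tested. DESeq2 also called 0. Adjusted p-values under 0.05 were negative in 83 tests and positive in 15, and the medians at day 8 were −0.31 in N2B27, −0.26 in E8 and −0.33 in mTeSR. KARS, for example, differed by −0.37 ± 0.09 in N2B27 at day 8 (adjusted p = 0.00145). The 9 other ATF4-induced genes tested gave 44 higher (32.6%) and 4 lower (2.96%) calls in 135 tests, led by VLDLR and INHBE (13 higher each) and FAM129A (7). The 4 lower calls were of GDF15.

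Lists of neighbouring stress responses were set beside these, with the same shares over all genes, 13.7% higher and 7.18% lower. ER chaperone and unfolded protein response genes gave 0 higher and 21 lower (9.33%) calls in 225 tests over 15 genes, with HYOU1 lower in 6, and HSPA5, the chaperone BiP, at −0.68 ± 0.09 in E8 at day 8 without a call. The p53 target genes gave 28 higher (15.6%) and 6 lower (3.33%) calls in 180 tests, the higher share being near that of all genes, with the regulator MDM2 at −0.12 ± 0.11 in N2B27 at day 8. Hypoxia-inducible genes gave 55 higher (30.6%) and 1 lower call in 180 tests. By day 8 BNIP3 was higher by 1.04 ± 0.22 in N2B27, 1.03 ± 0.23 in E8 and 2.08 ± 0.22 in mTeSR, and VEGFA, which ATF4 and hypoxia both induce and which counts in both lists, by 1.47 ± 0.15, 1.58 ± 0.15 and 1.51 ± 0.15. NRF2 targets gave 16 higher (15.2%) and 6 lower (5.71%) calls in 105 tests, both near the shares of all genes, where NQO1 was higher in E8 at day 8 (1.63 ± 0.17) and TXNRD1 lower (−1.61 ± 0.13). Immediate early genes gave 53 higher (58.9%) and 13 lower (14.4%) calls in 90 tests, with FOS and EGR1 higher in 15 of 15 comparisons and JUNB lower in 13. GDF15, CDKN1A, VEGFA and SLC7A11 each stand in 2 lists.

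**Figure D5:**
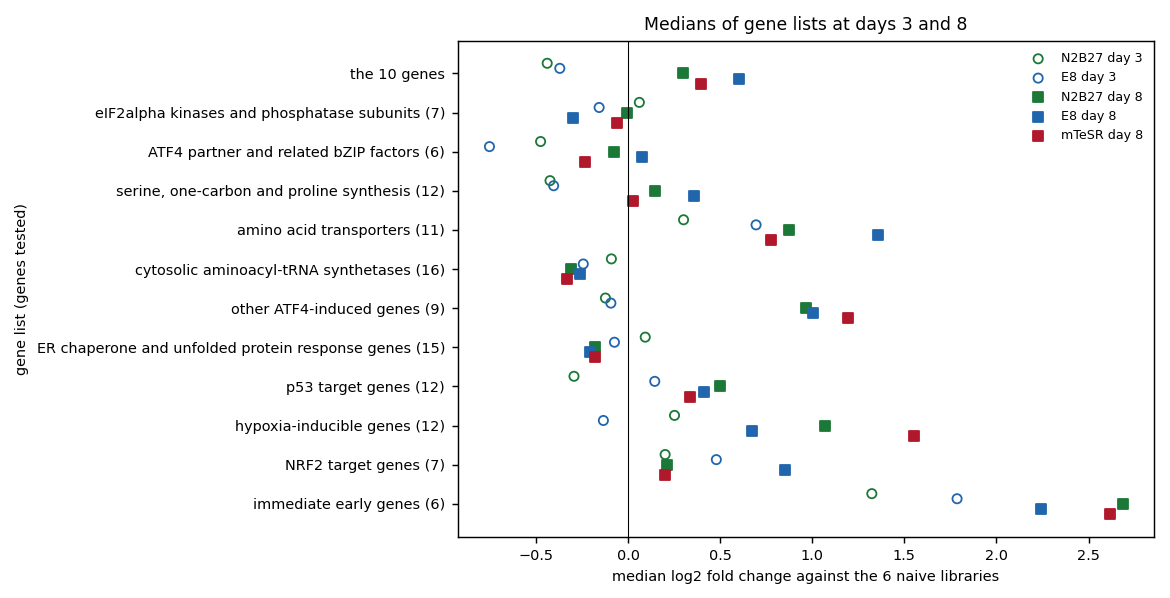
Median log2 difference from naive cells of the 10 genes and of each other gene list (rows, with the number of genes tested), at day 3 (open circles) and day 8 (filled squares), coloured by medium. At day 8 in E8 the transporters sit at 1.36, the 10 genes at 0.60 and the synthetases at −0.26.

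The 10 genes were compared over the means of the 19 groups, which share the medium, day and experiment of their libraries, as a description. Pearson's r over the 45 pairs had a median of 0.4926 and ranged from −0.0926 to 0.922, with 22 pairs above 0.5. The highest was that of CHAC1 and SESN2, and all 4 negative values involved TRIB3. Among 9332 genes with a mean of at least 10 CPM, the gene most like each of the 10 was ALDH1L2 for TRIB3 (r = 0.887), FAM129A for PSAT1 (0.977), SHMT2, another enzyme of serine and glycine metabolism, for PHGDH (0.910), SESN2 for CHAC1 (0.922) and the reverse, and GAS5, a noncoding RNA, for ASNS (0.880). For ATF4 it was AIF1L (0.966), for ATF3 AJUBA (0.907), for DDIT3 the ribosomal protein gene RPL12 (0.913) and for DDIT4 RNF41 (0.895). In order of level over 16 conditions (6 naive and 4 N2B27 day 4 libraries pooled), the pooled naive cells ranked highest for TRIB3 and DDIT3 and lowest for PSAT1. The first 2 ranks rested on the Ex2 naive libraries. In Ex1 alone, naive cells on serum and on Geltrex had mean DDIT3 levels of 39.8 and 52.1 CPM, below E8 at day 8 (54.3 CPM), and mean TRIB3 levels of 36.3 and 36.2 CPM, below N2B27 at day 8 (39.9 CPM). For PSAT1, the Ex2 naive cells (mean 328 CPM) lay above N2B27 at day 2 in Ex1 (267 CPM). E8 at day 8 ranked highest for CHAC1, ATF3, PSAT1 and PHGDH. The highest mean exceeded the lowest 4.94-fold for ATF3, 4.71-fold for CHAC1, 4.12-fold for DDIT4 and 3.85-fold for TRIB3, but 1.88-fold for ATF4 and 1.73-fold for PHGDH. Neighbours in these orders mostly overlapped in their libraries, in 10 to 14 of 15 neighbouring pairs for each gene.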

How the data were processed

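RNA was measured in 38 libraries of Shef6 cells by 3′ tag sequencing. The deposited table holds estimated counts per gene symbol as whole numbers, made by the authors against hg38 with the rnaseq workflow of nf-core. The submitters' processing notes name FastQC 0.11.9, STAR 2.7.10a and Salmon 1.9.0, and estimates were summed to genes with tximport. The annotation release is not given in the sources used here. Reads lie near the 3′ end of transcripts, so isoforms and gene length play little part, and levels are compared between libraries, and between genes only to choose the list genes that are named. Reads without molecular identifiers are not independent molecules. Of the columns of libraries, 0 could not be matched to a sample. The 2 naive libraries of Ex2 carry day 4 in their column name and day 0 in the labels, which were followed.

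Tests were run with edgeR 4.0.16 in R 4.3.3 (filterByExpr, TMM scaling, quasi-likelihood F-tests, Benjamini-Hochberg adjustment over the 16674 genes kept, which held 99.646% of counts). The 15 comparisons against naive cells came from a fit with 1 level for each of 16 combinations of medium and day, in which the 6 naive libraries shared a level, as did the 4 of N2B27 at day 4. A fit with 19 groups gave the comparisons between media, the F-tests over days and the interactions, with a common dispersion of 0.01001, or a biological coefficient of variation of 10%. Calls follow the thresholds of the study, which used DESeq2. F-tests were called on the adjusted p-value alone. The 10 genes and the lists were chosen with earlier results of these data known, from textbook knowledge, so that no list is independent evidence. Symbols were matched to older names through RefSeq synonyms. Of the 20 genes in the list of synthetases, which includes XPOT, 16 were tested, and GARS1, MARS1, QARS1 and SARS1 had no match. From each list the 3 genes with the highest mean CPM were to be named, and list genes named beyond these, for the number of their calls, were chosen after their values were seen.

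Other settings were RLE scaling, scaling by library totals alone, no filter on low counts or a filter that asks for over 10 counts in 2 libraries, which the study states for another data set, DESeq2 1.42.0, fits to the compared libraries alone, no fold threshold, other sets of naive libraries, and the experiment, the replicate number or a library score as a covariate. Each library was also left out in turn, keeping the dispersion trend, so that the lone library of a group is taken to vary like the other groups. The library score used the genes with a mean of at least 20 CPM.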

Additional observations from a re-analysis of the deposited data

Results flagged for a closer look

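Of the 10 genes, 3 differed in how a pair of media diverged over the days, by a test of the interaction itself. For mTeSR and N2B27 these were 2 of 10 genes, beside 2.18% of all genes, and for E8 and N2B27 1 of 10, a share near the 11.0% of all genes. For TRIB3 in mTeSR and N2B27 over days 4 to 8 the adjusted p-value was 0.00160, and the difference of mTeSR from N2B27 went from −0.30 at day 4 and −0.03 at day 6 to −1.72 at day 8. For ATF3 in the same media it was 0.00603, with differences of 0.38, 0.08 and −0.66. For DDIT4 in E8 and N2B27 over days 2 to 8 it was 0.0266, with differences of −0.21, −0.18, −1.02, −0.54 and 0.10 at days 2, 3, 4, 6 and 8. ATF3 and DDIT4 lost the call without single libraries, as given in the report. By the gap between the outermost library and its neighbour, no single library stood apart for any of the 10 genes in the 6 naive or the 4 N2B27 day 4 libraries (20 checks). A pair of libraries that lie together, as those of Ex2 do for DDIT3 among the naive ones, is not seen by such a gap.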

How the results depend on the processing

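Of the 30 calls for single genes, RLE scaling, the filter of over 10 counts in 2 libraries, no filter, DESeq2 and fits to the compared libraries alone each kept 29, plain totals 30 and the library score as a covariate 24, and none reversed. Of the 27 calls against naive cells, 22 remained with naive cells of the same experiment or the experiment as a covariate, and 19 with serum-coated naive cells. With single libraries left out, the 30 calls passed the threshold in 203 of 232 tests. With 2 libraries a group, changes near 2-fold cannot be told from smaller ones. The cause of each change below was not tested, except that dropping the fold threshold adds calls by construction.

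With no fold threshold, the calls went from 6 to 23 of 50 in N2B27 (40.1% of tests over all genes), from 13 to 30 of 50 in E8 (43.0%), from 6 to 19 of 30 in mTeSR (41.8%) and from 2 to 8 of 20 in XAV and FAX (33.7%) against naive cells. They went from 1 to 13 of 50 for E8 against N2B27 (12.6%), from 1 to 6 of 30 for mTeSR against N2B27 (8.23%), from 1 to 5 of 30 for mTeSR against E8 (5.65%), from 0 to 1 of 30 in the Ex2 media (0.732%) and from 0 to 6 of 30 between like cultures (6.42%). Naive cells of the same experiment gave 10 calls in N2B27 (20.2% over all genes) and 4 in XAV and FAX (20.3%), serum-coated naive cells 11 in N2B27 (18.9%) and 12 in mTeSR (23.2%), and the experiment as a covariate 4 in XAV and FAX (17.1%). RLE scaling, the filter of over 10 counts and DESeq2 gave 1 in XAV and FAX. RLE scaling and DESeq2 gave 2 for E8 against N2B27, and the library score 2 for mTeSR against E8. With no filter there were 6 interactions (3.45% over all genes) in place of 3 and 1 difference between experiments in place of 0. Leaving out single libraries gave 3 to 7 calls in mTeSR, 1 to 3 in XAV and FAX, 0 to 3 for E8 against N2B27, 1 to 2 for mTeSR against E8, 2 to 5 interactions and 0 to 1 differences between experiments.

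Replicate numbers are shared by all groups. Over 171 pairs of groups the deviations of same-numbered libraries had a median correlation of 0.0031, from −0.350 to 0.258, with 7 above 0.1, so the numbers do not pair the libraries. With the replicate block all 30 calls remained, the changes over days numbered 28 in place of 27, and the interactions 4.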
